A study of Mus musculus with 28 samples.

Results

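The genes described here are 48 homeobox genes that lie singly or in small groups across the mouse genome, outside the Hox clusters. They were listed by name, with earlier results of these data known. All 48 were found among 21883 protein-coding genes of the RefSeq table for the mouse assembly. For each gene, the regions of 2 deposited lists were collected over the gene body plus 50 kb either side, which gave 134 of 5430 H3.3 regions and 103 of 57844 H3K27ac regions on assembled chromosomes. The regions came from CUT&RUN, in which an antibody tethers a nuclease to its target in nuclei and the released DNA is sequenced. The cells were E14 mouse embryonic stem cells, a male line, and the title names the histone change H3.3K122A. The 28 libraries targeted H3.3, H3K27ac or H3K122ac, or had no antibody, in 4 mutant genotypes and in wildtype cells. The mutants were H3f3a_AA_H3f3b_WTWT, H3f3a_WTWT_H3f3b_AA and H3f3a_WTA_H3f3b_AA with 1 library per target, and H3f3a_AA_H3f3b_WTA with 2, from 2 clones, while wildtype had 2. All groups share a serum medium with LIF, a 2i supplement is also described, and no drug separates them. Each list is a consensus over libraries and holds positions alone, so mutant cells were not compared with wildtype cells here. Nor can a region be assigned to a genotype, depth is unknown, and no count below has replicates or a p-value.

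A homeobox encodes the homeodomain, a DNA-binding fold shared by transcription factors that lay out the body plan. Genes of this kind are mostly silent in embryonic stem cells, where many are textbook targets of Polycomb repressive complexes, and each is switched on later in a restricted set of cells. H3.3 is a histone H3 variant that is placed on chromatin outside DNA replication. Acetylation of lysine 27 on histone H3 (H3K27ac) marks active promoters and enhancers.

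H3.3 regions were found on most of the homeobox genes, and H3K27ac regions on few of them. An H3.3 region touched the gene body, by 1 bp or more, at 39 of the 48 homeobox genes (81.2%), and at 16.1% of all protein-coding genes. An H3K27ac region touched the gene body at 5 homeobox genes (10.4%), against 48.4% of all protein-coding genes. H3.3 without H3K27ac was seen on 36 of the 48 gene bodies (75.0%), and on 4.36% of all protein-coding gene bodies. Both marks were on 3 homeobox genes (Phox2a, Hesx1 and Vsx1), H3K27ac alone was on 2 (Prrx2 and Gbx1), and 7 had neither (Msx2, Cdx1, Meox1, Meox2, Barhl1, Dbx2 and Mixl1). The homeobox genes are short, with a median of 6760 bp against 17170 bp for all protein-coding genes. Among genes of at most 10 kb, H3.3 touched 29 of 31 homeobox genes (93.5%) and 12.5% of 7925 protein-coding genes, and H3K27ac touched 3 homeobox genes (9.68%) and 27.1% of the protein-coding genes.

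In windows of 50 kb either side the differences ran the same way and were smaller in ratio. Within 50 kb, 43 homeobox genes (89.6%) had an H3.3 region, against 41.3% of all protein-coding genes. H3K27ac lay within 50 kb of 28 homeobox genes (58.3%), against 73.2% of all protein-coding genes. In the same window the H3.3 regions covered a median of 3230.5 bp per homeobox gene and 0 bp per protein-coding gene. H3K27ac regions covered a median of 470 bp per homeobox gene and 3940 bp per protein-coding gene. More sequence was covered by H3.3 than by H3K27ac at 33 of the 48 homeobox genes, and at 977 of all protein-coding genes (4.46%). More than 5 kb was covered by H3.3 at 18 homeobox genes and at 315 of all protein-coding genes (1.44%). At the edge of the window, Meox1 had its nearest H3.3 region at 33963 bp and Gbx1 at 75619 bp, and the nearest H3K27ac region was 46348 bp from Barx2 and 50973 bp from Tlx1.

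**Figure D1:**
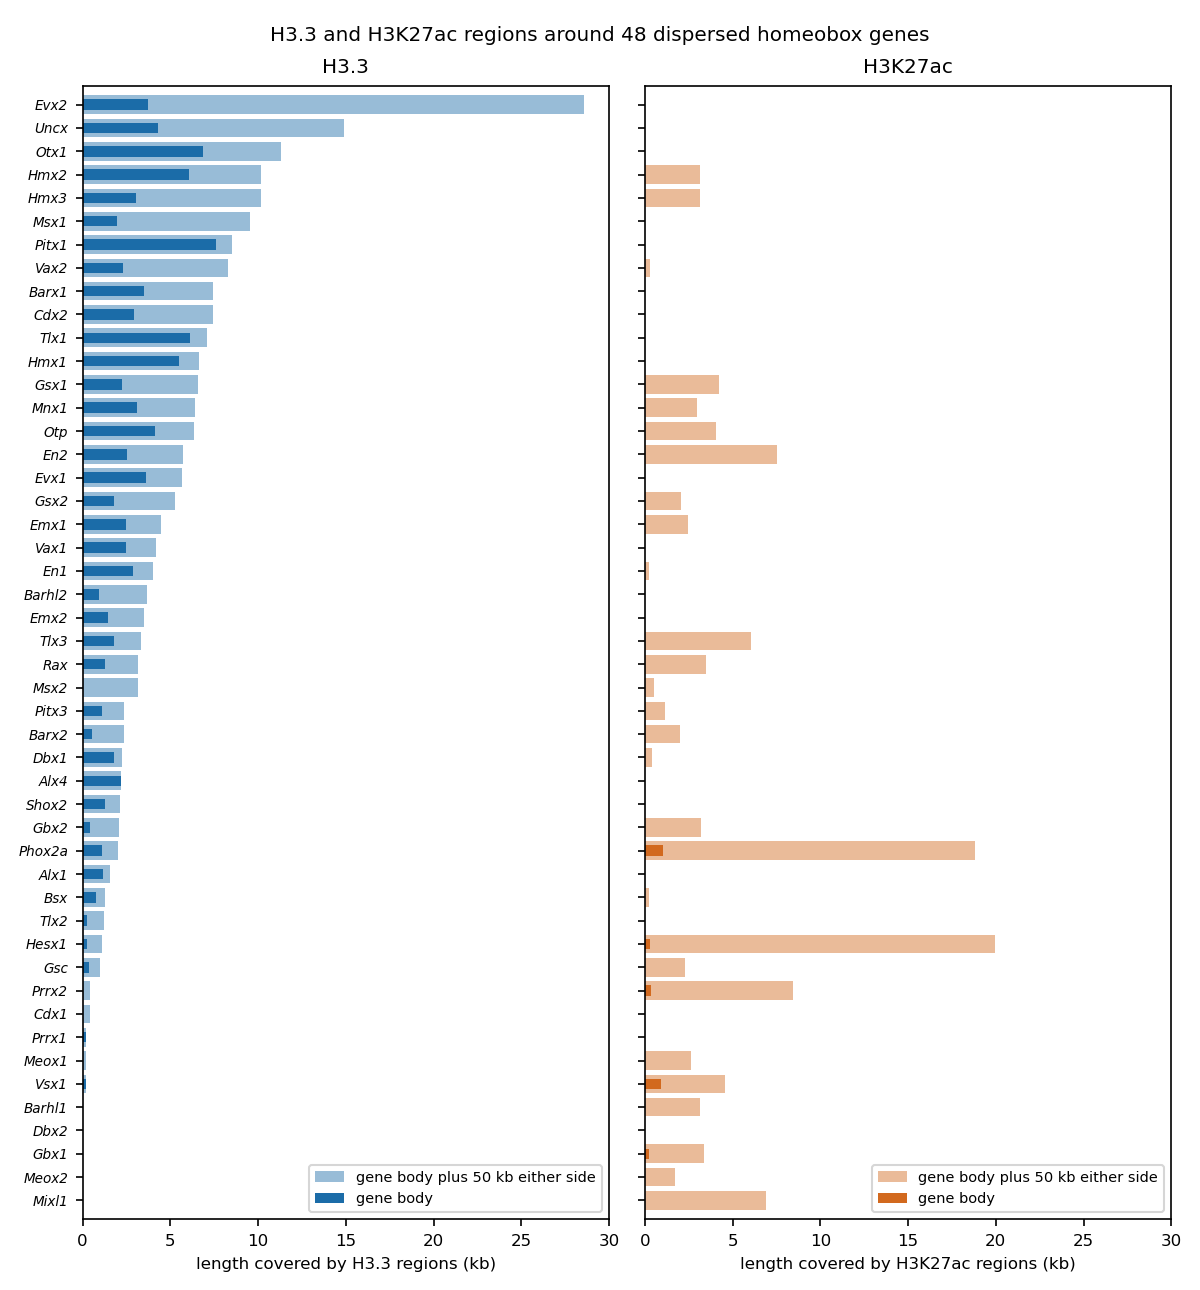
Length in kb covered by H3.3 regions (left, blue) and H3K27ac regions (right, orange) at each of the 48 homeobox genes, in the gene body (dark bars) and in the gene body plus 50 kb either side (light bars), 1 value per gene, ordered by H3.3. Evx2 leads for H3.3 with 28604 bp and Hesx1 for H3K27ac with 19945 bp, and dark orange bars are present at 5 genes.

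The H3.3 regions at the homeobox genes were wide and stood apart from acetylated chromatin. Their median width was 834 bp, against 451.5 bp over all 5430 H3.3 regions, and 31 of 134 (23.1%) were wider than 2 kb, against 6.11% of all. An H3K27ac region touched 9 of the 134 (6.72%, exact Clopper-Pearson 95% interval 3.12 to 12.4%, for counting over regions alone), against 47.5% of all H3.3 regions. The interval takes the regions as independent, although many share a window, such as the 12 at Evx2. The 125 not touched by H3K27ac lay a median of 55753 bp from the nearest H3K27ac region. For the 2851 such regions in the whole list the median was 23870 bp. Of the 134 regions, 60 touched the body of a listed homeobox gene and another 45 had such a gene as the nearest protein-coding gene to their centre. The 60 had a median width of 1359.5 bp, and the 45 were shorter, with a median of 622 bp, and close by, at a median of 2604 bp from the gene. A wider region is more likely to touch a body, so these widths differ in part by the way the groups were formed. The remaining 29 regions were nearest to another gene. Of the 103 H3K27ac regions, 21 were nearest to a listed homeobox gene and 82 to another gene. The median width was 377 bp for the 21 and 841.5 bp for the 82. These splits by nearest gene were not set against windows around all protein-coding genes.

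The 10 homeobox genes with the most H3.3 within 50 kb were Evx2, Uncx, Otx1, Hmx2, Hmx3, Msx1, Pitx1, Vax2, Barx1 and Cdx2. Evx2, a gene of spinal cord and limb that adjoins the Hoxd cluster, had 28604 bp in 12 regions, of which 10 were nearest to Hoxd genes. The region on Evx2 itself measured 3742 bp. Uncx, a sclerotome and nervous system gene, had 14903 bp in 4 regions, and Otx1, a forebrain and sensory organ gene, had 11333 bp in a single region. Hmx2 and Hmx3, neighbours that act in the inner ear and hypothalamus, share a window with 10181 bp. Msx1, a craniofacial and limb regulator, had 9530 bp, and Pitx1, which specifies the hindlimb, had 8512 bp. Vax2, of the ventral eye, had 8309 bp in 7 regions, of which 2 were nearest to other genes. Barx1, of stomach mesenchyme and teeth, had 7432 bp. Cdx2, a regulator of trophoblast and gut, had 7421 bp in 4 regions, of which 2, of 398 and 3027 bp, were nearest to Pdx1. H3K27ac was absent within 50 kb of 7 of these 10 genes, and present at Hmx2 and Hmx3 (3151 bp, nearest to Bub3 for each of the 5 regions) and at Vax2 (315 bp, at Tex261).

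On 4 genes a single H3.3 region covered the whole annotated body. They were Uncx, Otx1, Barx1 and Gsx1, an early patterning gene of the ventral forebrain, and the same was true of 18 protein-coding genes in all. The region at Otx1 spanned chromosome 11 from 21993759 to 22005091 (mm10), that at Barx1 chromosome 13 from 48662232 to 48666596, and that at Gsx1 chromosome 5 from 147185768 to 147192334, a width of 6567 bp. At least 50% of the body was covered at 13 homeobox genes and at 121 protein-coding genes in all (0.553%). Tlx1, a spleen and spinal cord gene, had 89.2% covered by a region of 6112 bp, and Gsx2, the paralogue of Gsx1 in the ventral forebrain, had 77.4%. Among the 39 homeobox genes with H3.3 on the body, the median share covered was 38.8%, against 1.79% over the 3524 protein-coding genes with H3.3 on the body. By width, 8 of the 39 genes (20.5%) carried one of the 100 widest H3.3 regions of the list, against 92 of the 3524 protein-coding genes (2.61%), among the 8 being Pitx1 (rank 16, 7830 bp), Gsx1 (rank 28), Tlx1 (rank 33) and Hmx2 (rank 34, 6041 bp). At the other end, the region on Vsx1 measured 215 bp and that on Prrx1 219 bp.

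Each gene was placed by hand in 1 group by role, though some act in several places, and the counts by role depend on this. Hmx2 and Hmx3, for example, were counted with the hindbrain and spinal cord genes, and Barx1 with the limb genes. Genes listed under forebrain, eye and hypothalamus carried H3.3 with 1 exception. H3.3 was on 13 of 14 gene bodies, with a median of 1620.5 bp of body covered. Otp, which directs hypothalamic neuroendocrine neurons, had 4107 bp of its body covered, and Emx1 and Emx2, regulators of the cerebral cortex, had 2477 and 1466 bp. Vax1 and Vax2 had 2489 and 2325 bp, Rax, the eye field gene, had 1286 bp, and Barhl2, of retina and forebrain, had 946 bp. Bsx, of hypothalamic feeding neurons, had 752 bp at its downstream end. The exception was Barhl1, a neuronal gene also active in the inner ear and cerebellum, whose nearest H3.3 region lay 178998 bp away. In this group H3K27ac touched Hesx1 and Vsx1.

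Genes of the midbrain, hindbrain, spinal cord and sensory neurons carried H3.3 on 15 of 17 bodies, with a median of 2518 bp covered. Hmx1, of sensory ganglia and the face, had 5479 bp in 4 regions. Evx1, which marks a class of spinal interneurons, had 3634 bp, and Mnx1, a motor neuron and pancreas gene, had 3082 bp. En1 and En2, which pattern the midbrain and hindbrain, had 2886 and 2518 bp. Dbx1, a spinal progenitor gene, had 1782 bp, and Tlx3, which directs excitatory neurons of the dorsal horn, had 1774 bp. Pitx3, of dopaminergic neurons and lens, had 1123 bp, Phox2a, of noradrenergic neurons, had 1090 bp, Gbx2, of the anterior hindbrain, had 418 bp, and Tlx2, of the enteric nervous system, had 260 bp. Dbx2 and Gbx1 had 0 bp on the body and no H3.3 region within 50 kb. For Dbx2 the nearest was 589709 bp away, and it was the single member with neither mark within 50 kb.

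Genes of the limb, face, skeleton and somites carried H3.3 on 9 of 13 bodies, with a median of 1156 bp covered. Pitx1 had 7580 bp and Uncx 4315 bp, and Alx4, of craniofacial mesenchyme, had 2203 bp inside the gene. Alx1, its paralogue, had 1156 bp, and Shox2, of limb and cardiac pacemaker, had 1258 bp in 3 short regions. Barx2 had 528 bp and Prrx1, of limb mesenchyme, 219 bp. Msx2, Meox1, Meox2 and Prrx2 had no H3.3 on the body. Msx2, which acts with Msx1 in the skull and limb, nevertheless had 3141 bp in 3 regions beside it, the nearest at 1078 bp. The somite gene Meox2 had none within 50 kb, the nearest lying 950409 bp away. For Meox1 and Prrx2, the H3.3 regions within 50 kb, of 215 bp at Meox1 and 430 bp in 2 regions at Prrx2, were nearest to other genes.

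Of the 4 genes of gastrulation, trophoblast and gut, 2 carried H3.3 on the body. Cdx2 had 2936 bp of H3.3 on its body, and Gsc, the organizer gene, had 387 bp in a region of chromosome 12 from 104471698 to 104472084. Cdx1, of the hindgut, had none on its body and 421 bp at the neighbouring Slc6a7. Mixl1, of the primitive streak, had no H3.3 region nearer than 106045 bp.

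By homeodomain class, H3.3 was on 14 of 16 bodies of the PRD class (paired-like genes such as Otx1 and Pitx1), on 18 of 21 of the NKL subclass (such as Msx1 and Hmx1) and on 7 of 11 of the HOXL subclass (such as Cdx2 and Evx2). H3K27ac was on 4 bodies of the PRD class, on 1 of the HOXL subclass and on none of the NKL subclass.

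Paralogues differed in some families and not in others. There were 17 families with 2 or 3 listed genes, 36 genes in all. Each gene had H3.3 on its body in 10 families, some had it in 6 and none had it in 1, the Meox family. H3.3 was on 39 of all 48 bodies, and the split was not set against groups formed without regard to family. In the 6 divided families, Msx1, Gbx2, Barhl2, Cdx2, Prrx1 and Dbx1 had it, and Msx2, Gbx1, Barhl1, Cdx1, Prrx2 and Dbx2 did not. The Evx, En, Gsx and Vax pairs were close in the length of gene body covered, a measure limited by the length of the gene. Within 50 kb, Evx1 had 5667 bp and Evx2 28604 bp, and Vax1 had 4156 bp and Vax2 8309 bp. In that window En1 had 3988 bp and En2 5714 bp, and Gsx1 had 6567 bp and Gsx2 5249 bp. On the body, Pitx1 had 7580 bp and Pitx3 1123 bp, and Tlx1 had 6112 bp and Tlx2 260 bp.

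**Figure D2:**
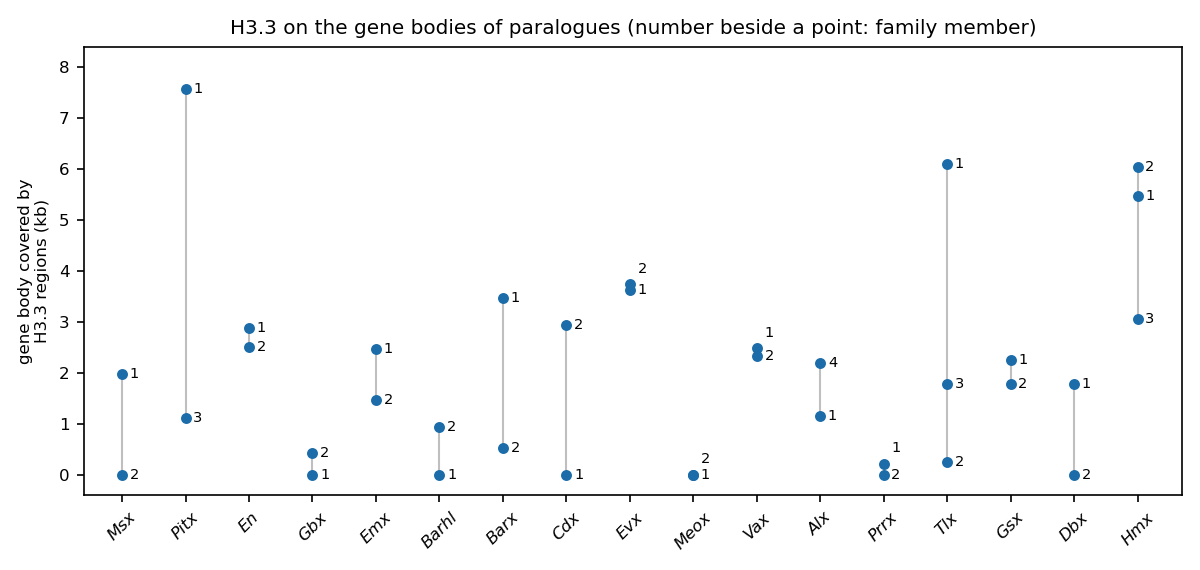
Length of the gene body in kb covered by H3.3 regions for the 36 genes of 17 families, 1 point per gene, with the number in the gene's name beside it and a grey line joining paralogues. Evx1 and Evx2 lie at 3634 and 3742 bp, Pitx1 and Pitx3 at 7580 and 1123 bp, and both Meox genes at 0.

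At the starts of the homeobox genes, H3.3 covered more of the sequence downstream than upstream in most cases. RefSeq gives a start and strand for 35 of the 48 genes. The start lay inside an H3.3 region at 20 of the 35 (57.1%), against 7.14% of 17491 protein-coding genes. It lay inside an H3K27ac region at 1 of the 35 (2.86%), Vsx1, against 17.7% of protein-coding genes. At 25 of the 35 (71.4%) an H3.3 region lay within 1 kb of the start, against 15.8% of protein-coding genes. At 2 kb downstream of the start H3.3 covered 31.4% of the homeobox genes and 0.789% of protein-coding genes, and at 2 kb upstream 17.1% and 0.623%. Over 10 kb on each side, 24 genes had more H3.3 downstream, 7 had more upstream and 4 had none. The medians were 2476 bp downstream and 1204 bp upstream. These counts and medians were not made for all protein-coding genes, whose percent at 2 kb was also higher downstream. A lean particular to the homeobox genes was therefore not tested. The downstream side runs past the end of the shorter genes, as at Uncx, and can hold regions of a neighbour, as at Hmx3. Msx1 was among the 7, with 5439 bp upstream and 4090 bp downstream. At Shox2, Gsc, Tlx3 and Barhl2 regions lay on both sides of the start without covering it, the nearer at 130, 306, 444 and 483 bp.

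**Figure D3:**
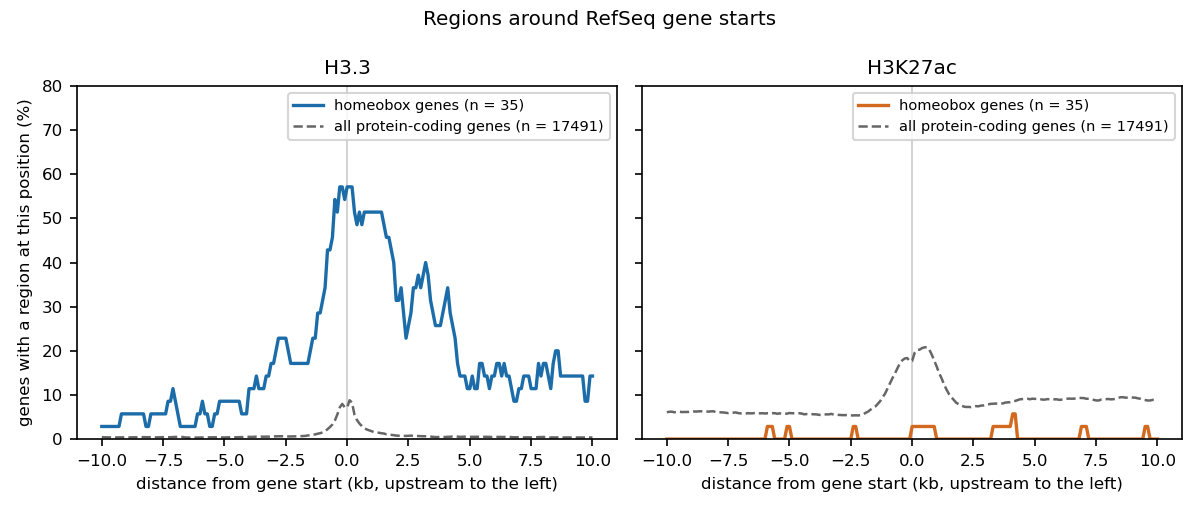
Percent of genes with an H3.3 region (left) or an H3K27ac region (right) at each distance from the RefSeq start, in kb with upstream to the left, for 35 homeobox genes (solid) and 17491 protein-coding genes (dashed). The H3.3 line of the homeobox genes peaks at 57.1% near the start, and their H3K27ac line stays at or below 5.71%, against a peak of 20.8% for protein-coding genes.

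**Figure D4:**
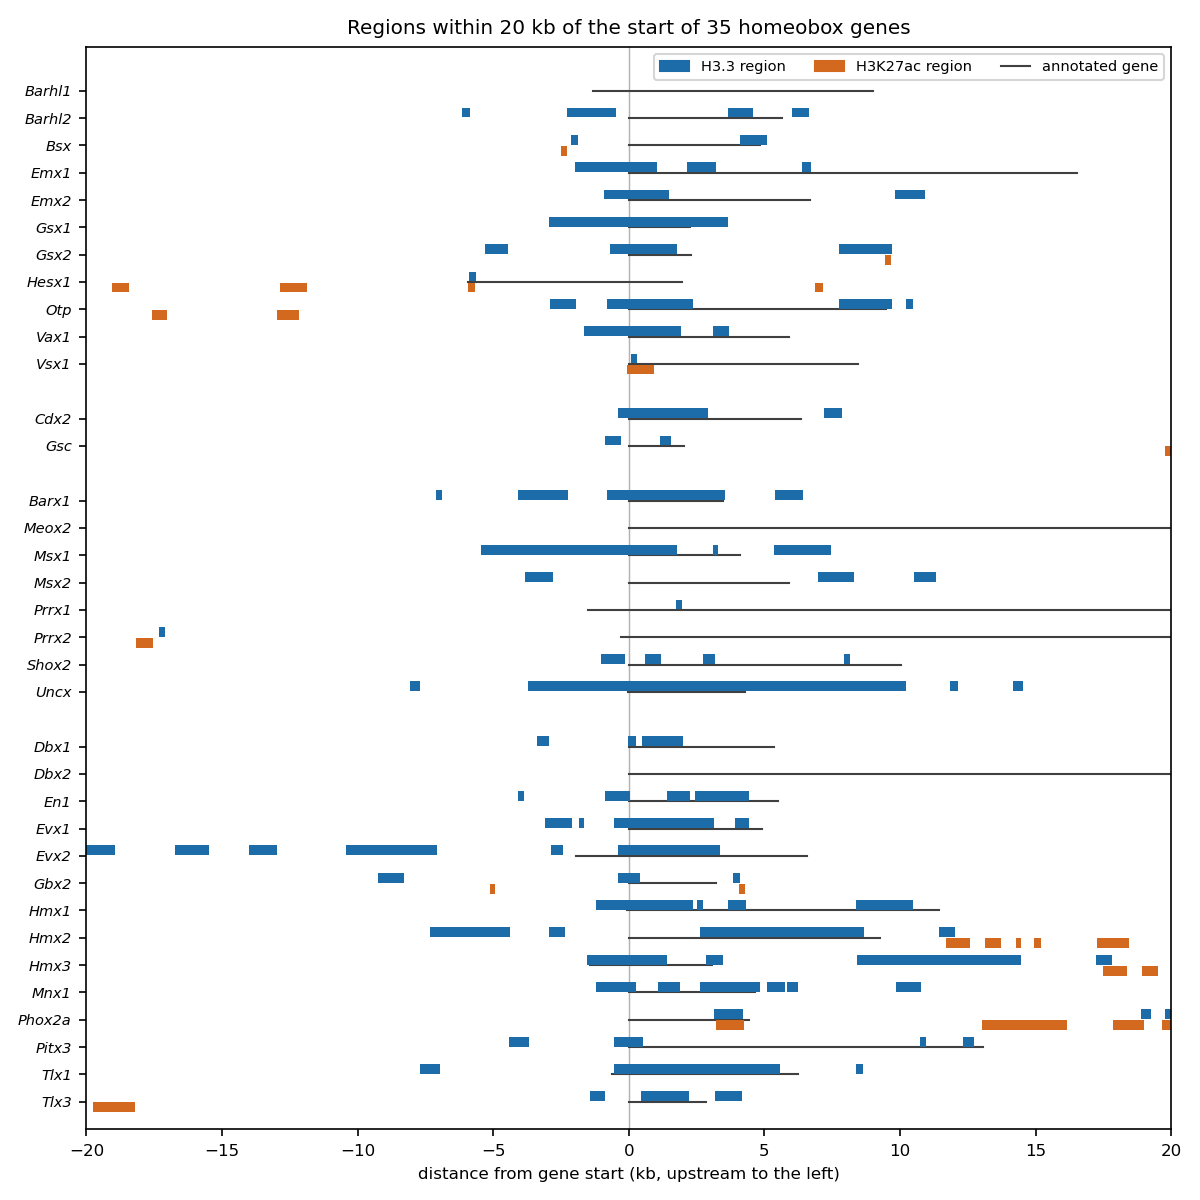
H3.3 regions (blue) and H3K27ac regions (orange) within 20 kb of the start of the 35 homeobox genes with a RefSeq start, by distance in kb with upstream to the left, in blocks by role (forebrain first, then gastrulation and gut, limb and somites, and hindbrain and spinal cord). Thin lines are annotated gene bodies, which Uncx, Barx1 and Gsx1 show as wholly under H3.3, while Barhl1, Meox2 and Dbx2 have no H3.3 within the span.

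The promoter sequences are shown because the H3.3 regions were placed on or beside the starts of most of these genes, and promoters rich in CpG are a known feature of Polycomb targets. Each run holds 250 bases before and 50 after the RefSeq start (GRCm38.p6), on the strand of the gene, with CpG dinucleotides in capitals. The genes are 3 of the 4 with the most H3.3 on the gene body and 4 of the 5 without any, among those with an entry, with ties taken in order of symbol. The downstream start of Hmx2 was added after its values were seen.

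The promoters of 3 genes with wide H3.3 on the body are these.
Tlx1, chr19:45150465-45150764, plus strand: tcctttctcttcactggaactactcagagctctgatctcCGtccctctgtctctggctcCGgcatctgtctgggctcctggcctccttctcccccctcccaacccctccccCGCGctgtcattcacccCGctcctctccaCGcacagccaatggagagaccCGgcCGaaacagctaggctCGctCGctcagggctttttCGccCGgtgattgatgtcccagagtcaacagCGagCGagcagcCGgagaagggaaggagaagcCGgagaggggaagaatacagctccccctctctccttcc
Hmx2 (upstream start), chr7:131548507-131548806, plus strand: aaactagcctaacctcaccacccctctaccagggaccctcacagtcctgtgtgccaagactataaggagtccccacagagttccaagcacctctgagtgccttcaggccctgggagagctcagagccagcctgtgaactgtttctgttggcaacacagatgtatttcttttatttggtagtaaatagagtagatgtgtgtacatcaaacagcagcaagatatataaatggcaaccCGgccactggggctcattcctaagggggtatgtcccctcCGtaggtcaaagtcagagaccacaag
Hmx2 (downstream start), chr7:131554043-131554342, plus strand: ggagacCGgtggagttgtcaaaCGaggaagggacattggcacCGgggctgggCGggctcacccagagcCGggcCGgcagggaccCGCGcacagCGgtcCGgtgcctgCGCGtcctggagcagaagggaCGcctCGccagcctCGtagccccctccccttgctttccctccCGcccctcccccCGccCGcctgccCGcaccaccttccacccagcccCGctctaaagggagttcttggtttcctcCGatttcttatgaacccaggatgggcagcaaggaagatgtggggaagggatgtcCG
Uncx, chr5:139543648-139543947, plus strand: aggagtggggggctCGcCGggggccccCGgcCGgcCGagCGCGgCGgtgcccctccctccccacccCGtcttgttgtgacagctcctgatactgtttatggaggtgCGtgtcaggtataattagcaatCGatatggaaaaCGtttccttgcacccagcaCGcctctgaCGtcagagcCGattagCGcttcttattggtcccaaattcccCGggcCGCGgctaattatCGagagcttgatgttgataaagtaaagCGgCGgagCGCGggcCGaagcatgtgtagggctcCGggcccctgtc

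The promoters of 4 genes without H3.3 on the body are these.
Barhl1, chr2:28916619-28916918, minus strand: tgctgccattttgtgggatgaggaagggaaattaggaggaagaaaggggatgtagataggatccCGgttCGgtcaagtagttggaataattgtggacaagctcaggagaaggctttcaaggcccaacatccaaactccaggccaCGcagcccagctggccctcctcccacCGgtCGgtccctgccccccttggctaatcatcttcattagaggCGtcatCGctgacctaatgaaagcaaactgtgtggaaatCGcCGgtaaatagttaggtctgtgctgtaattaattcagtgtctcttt
Dbx2, chr15:95654722-95655021, minus strand: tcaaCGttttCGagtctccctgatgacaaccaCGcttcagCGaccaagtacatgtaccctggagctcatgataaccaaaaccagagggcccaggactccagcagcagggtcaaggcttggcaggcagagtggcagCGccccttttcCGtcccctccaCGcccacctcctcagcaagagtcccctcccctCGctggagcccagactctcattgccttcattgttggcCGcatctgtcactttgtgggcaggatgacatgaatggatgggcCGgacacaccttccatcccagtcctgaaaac
Meox2, chr12:37108290-37108589, plus strand: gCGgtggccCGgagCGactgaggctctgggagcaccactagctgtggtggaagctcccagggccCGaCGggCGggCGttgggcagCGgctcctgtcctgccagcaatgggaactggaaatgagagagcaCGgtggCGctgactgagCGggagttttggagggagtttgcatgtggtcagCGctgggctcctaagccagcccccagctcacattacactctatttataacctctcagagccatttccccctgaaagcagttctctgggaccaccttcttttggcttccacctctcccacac
Msx2, chr13:53472731-53473030, minus strand: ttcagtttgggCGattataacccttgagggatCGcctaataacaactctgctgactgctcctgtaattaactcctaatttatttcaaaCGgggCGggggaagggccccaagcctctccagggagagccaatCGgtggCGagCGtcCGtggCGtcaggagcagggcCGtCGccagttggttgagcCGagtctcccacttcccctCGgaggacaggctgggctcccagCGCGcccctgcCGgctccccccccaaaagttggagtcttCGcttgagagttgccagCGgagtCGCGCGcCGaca

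The starts of Tlx1 and Uncx lay inside H3.3 regions, and their promoters held 16 and 26 CpG. Hmx2 has 2 starts in RefSeq. The upstream one held 2 CpG and lay 2337 bp outside the nearest H3.3 region, and the downstream one held 22 CpG and lay inside the region of 6041 bp, which spans chromosome 7 from 131551374 to 131557414. Of the genes without H3.3 on the body, Barhl1 held 9 CpG at its most upstream start, Dbx2 10, Meox2 12 and Msx2 22. Barhl1 also has 2 starts in RefSeq. Its downstream start, which is not printed, held 14 CpG and lay outside H3.3 regions. Over the 35 promoters, counting the most upstream start of each gene, the median was 19 CpG and 60.7% G+C, against 13 CpG and 56.3% G+C over all 17491. A G+C content of at least 50% with an observed-to-expected CpG ratio of at least 0.6 was met by 21 of the 35 (60.0%) and by 45.8% of all. The 20 promoters whose start lay in an H3.3 region held a median of 21.5 CpG (12 to 50), and the other 15 held 12 (2 to 42), so the ranges overlapped. Barhl2, with 42 CpG, Phox2a with 30 and Prrx2 with 28 had no H3.3 region on the start, while Evx1, with 12, had. Across the 35 genes Spearman's rho between CpG number and covered body length was 0.21, as a description.

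Short motifs were counted on both strands of the same 300 bases. TAATTA, a core bound by many homeodomains, was in 5 of the 35 promoters (14.3%), those of Uncx, Emx2, Msx2, Prrx1 and Barhl1, against 4.68% of all. TATAAA was in 8 (22.9%) against 13.3%, GGGCGG in 21 (60.0%) against 46.3%, and CCAAT in 15 (42.9%) against 39.2%. None of these motifs contains another, and a match is a string of letters, not a measured site.

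Most H3K27ac regions in these windows lay nearer to another gene than to a listed homeobox gene, and the nearest gene is a matter of position alone. The matching share of regions for windows around all protein-coding genes is not given here. The 10 genes with most H3K27ac within 50 kb were Hesx1, Phox2a, Prrx2, En2, Mixl1, Tlx3, Vsx1, Gsx1, Otp and Rax. Hesx1, a repressor of the forebrain and pituitary, had 19945 bp in 11 regions, of which the widest, 11000 bp, lay on Il17rd, an FGF signalling inhibitor gene. Phox2a had 18819 bp in 9 regions, the widest of 7096 bp on the folate receptor gene Folr1. Prrx2 had 8440 bp, with 4362 bp on the methyltransferase gene Ntmt1, and En2 had 7552 bp in 4 regions, each nearest to Cnpy1. Mixl1 had 6872 bp, with 2450 bp on Acbd3, and 177 bp at 262 bp from its own end. Tlx3 had 6027 bp in 4 regions, the widest of 2534 bp on Npm1, the nucleophosmin gene, and Vsx1 4566 bp, the widest on Acss1. For Rax (3467 bp) the widest region lay on Lman1, and for Otp (4040 bp) on the tubulin cofactor gene Tbca. Gsx1 had a single region of 4207 bp, 30764 bp away and nearest to Gsx1 itself. Of the 28 genes with H3K27ac within 50 kb, 11 (39.3%) were the nearest gene to none of those regions, against 4331 of the 16014 protein-coding genes (27.05%) with H3K27ac within 50 kb.

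The H3K27ac regions on 5 gene bodies measured 210 to 1025 bp, against a median of 812 bp over all 57844 H3K27ac regions. Those on Phox2a and Vsx1 were wider than this median, and those on Hesx1, Prrx2 and Gbx1 were shorter. On Phox2a a region of 1025 bp and an H3.3 region of 1090 bp shared 1014 bp at the downstream end of the gene, away from the start by 3136 bp. On Vsx1, a retinal interneuron gene, an H3K27ac region of 968 bp covered the start and contained the whole H3.3 region of 215 bp. On Hesx1 284 bp of H3K27ac and 256 bp of H3.3 overlapped by 252 bp, 5652 bp upstream of the RefSeq start and inside the annotated gene. Prrx2 had 325 bp at its downstream end and Gbx1, a spinal cord gene, 210 bp inside the gene. Among regions off the bodies, H3K27ac overlapped H3.3 beside Gbx2 (68 bp) and downstream of Gsx2 (234 bp), at Il17rd in the window of Hesx1, at Inppl1 in that of Phox2a, and at Bub3 in that of Hmx2 and Hmx3.

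The covered lengths of the 2 marks were set side by side for the homeobox genes, with no test. Of the 24 genes with more H3.3 within 50 kb, 11 had an H3K27ac region there, with a median of 0 bp, and of the 24 with less, 17 had one, with a median of 1855 bp. Spearman's rho of the covered lengths was -0.29 over the 48 genes, given as a description, and Hmx2 and Hmx3 share a window. No such split or rho was computed for all protein-coding genes, of which 73.2% had an H3K27ac region within 50 kb. No H3K27ac region lay within 100 kb of 12 of the 48 genes (25.0%), a share near the 19.5% of all protein-coding genes. The 12 include Otx1 (285740 bp to the nearest), Msx1 (214883 bp), Vax1 (174114 bp), Hmx1 (164769 bp) and Alx1 (316761 bp). H3.3 without H3K27ac within 50 kb was found at 19 homeobox genes (39.6%), against 2.70% of all protein-coding genes. Both were within 50 kb of 24 homeobox genes (50.0%), against 38.6% of all. H3K27ac alone was near 4 (8.33%: Mixl1, Meox2, Gbx1 and Barhl1), against 34.6%, and 1 had neither (2.08%), against 24.1%.

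Other homeobox genes were set beside these by counts alone. LIM homeobox genes, whose proteins add LIM domains to the homeodomain, had H3.3 on 11 of 12 bodies and H3K27ac on none. Nkx homeobox genes had H3.3 on 9 of 14 bodies and H3K27ac on none. The atypical and TALE classes, whose genes include broadly expressed members such as Cux1, had H3.3 on 12 of 30 bodies and H3K27ac on 20, with both on 10. The median H3.3 length within 50 kb was 3230.5 bp for the dispersed genes, 5541.5 bp for LIM genes, 1533.5 bp for Nkx genes and 550 bp for the atypical and TALE genes. The atypical and TALE genes are long, with a median body of 127904 bp, against 6760 bp for the dispersed genes. No test was made of these differences.

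**Figure D5:**
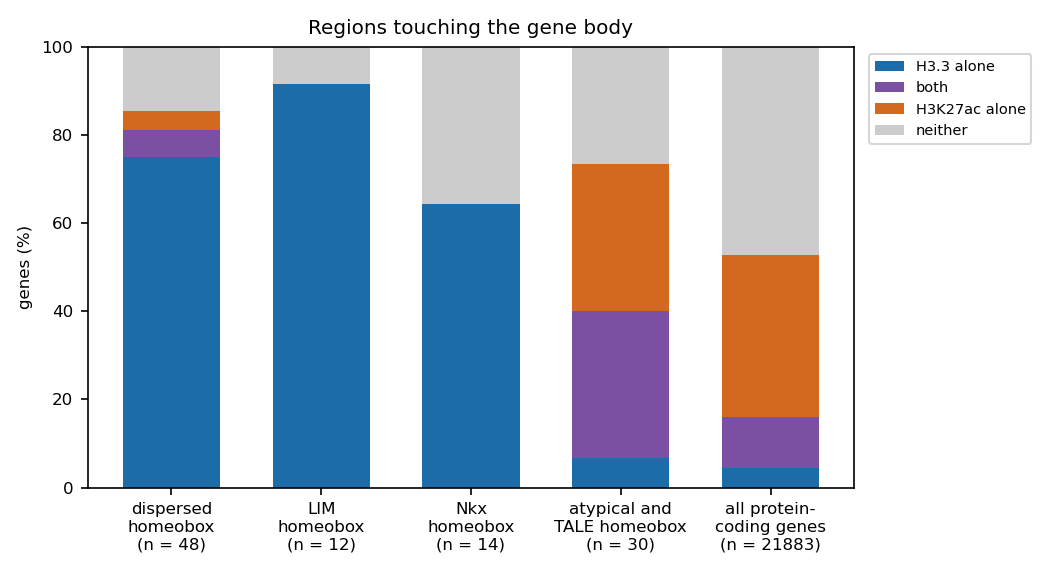
Percent of genes whose body is touched by H3.3 regions alone, by both marks, by H3K27ac regions alone or by neither, for the 48 dispersed homeobox genes, 12 LIM, 14 Nkx and 30 atypical and TALE homeobox genes and 21883 protein-coding genes. H3.3 alone accounts for 75.0% of the dispersed homeobox genes and 4.36% of all protein-coding genes.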

How the data were processed

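CUT&RUN was done on E14 nuclei with spike-in yeast mononucleosomes, with a protein A fusion of the nuclease for H3K27ac and H3K122ac and a protein A/G fusion for H3.3, and with a saltier stop buffer for H3K27ac, per the labels' protocols. The 2 lists therefore do not compare amounts of chromatin. Bowtie2, SAMtools, deepTools, MACS2 and mm10 are named, without roles, per the submitters' processing notes. The sources used here do not give the way libraries entered the consensus. The authors deposited chromosome, start and end of each region, with a name and no score or value per library. Columns of other samples numbered 0.

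Starts were raised by 1, and 16 H3.3 and 13 H3K27ac regions off the 21 assembled chromosomes were left out. Gene positions came from RefSeq (GRCm38.p6, whose chromosomes carry mm10 coordinates), as did promoters, with entries for 35 of 48 genes. Most distances are in bp between nearest edges, and the nearest gene to a region is taken from the region's centre. Where a gene had 2 starts, the most upstream was used. The promoter sequence of 1 gene chosen for printing is not reported here. All 56 names of the other homeobox lists were matched. Interval code was tested on simulated data. Python 3.11.15, numpy 2.4.6, pandas 2.3.3 and matplotlib 3.10.9 were used.

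The 48 genes and all lists were chosen with earlier results of these data known. Named by rule were the 10 genes with most H3.3 and the 10 with most H3K27ac within 50 kb, those with no H3.3 within 50 kb, those with H3K27ac on the body, and every family member. Names outside this rule complete small sets and were picked with the values in view. With no values per library, no test was made. Alternatives changed the window, the overlap rule, the width of regions and the genes counted.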

Additional observations from a re-analysis of the deposited data

How the results depend on the processing

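The excess of H3.3 and the scarcity of H3K27ac on the gene bodies kept their direction against all protein-coding genes under each alternative tried, and 33 of 49 alternative values stayed within 1.5 times the count, the interval of the percentage, or at the same median. No paired analysis was possible because the lists hold no values per library, and for the same reason no replicate could be left out.

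Homeobox genes with H3K27ac within 50 kb numbered 11 with a window of 10 kb (59.3% of all protein-coding genes) and 17 when a region counted only for its nearest gene (53.4%), against 28 as reported. H3K27ac was on 2 gene bodies with the wider 50% of the regions (36.5% of all protein-coding genes), against 5 as reported (48.4%). It covered 1 of 35 starts (17.7% of all), and was on 3 of 31 genes of at most 10 kb (27.1% of all). H3.3 covered 20 of 35 starts (7.14% of all). These start and length settings, and the one without the Evx genes, were added after seeing the data, and they count fewer genes.

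The median H3.3 length was 3225.5 bp with 10 kb and with the wider 50%, 3398 bp with 100 kb, 3151 bp with 1 gene per locus (47 genes, with 1 of Hmx2 and Hmx3) and 3146 bp without Evx1 and Evx2. Over all protein-coding genes the H3.3 median was 210 bp with 100 kb and 0 bp in the other settings. The median H3K27ac length was 0 bp with 10 kb, with the wider 50% and for nearest genes alone. Over all protein-coding genes it was 820, 2690 and 318 bp in these settings. For the homeobox genes it was 3610.5 bp with 100 kb (8260 bp for all protein-coding genes) and 404 bp with 1 gene per locus. It thus depends on the window. Depth is unknown, so a gene without a region may lack it for want of reads.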
